A study of Arabidopsis thaliana with 24 samples.

Results

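The 10 genes described here are the cold regulators CBF1, CBF2 and CBF3 and 7 of the genes known to respond to them, COR15A, COR15B, COR47, RD29A, KIN1, KIN2 and ERD10. They were chosen by locus identifier out of 33602 genes counted in Arabidopsis thaliana seedlings. The rule itself uses no measured value, though it was set with earlier results of these data known. RNA was sequenced from 24 libraries in 8 groups of 3. The parental groups were prmt5-5 and wild-type (WT) seedlings of the accession Landsberg erecta (Ler) and prmt5-5 and WT seedlings of the accession Columbia (Col). The hybrid groups were prmt5-5 and WT F1 seedlings of the cross LerxCol and of the cross ColxLer, and in the prmt5-5 hybrids each parent carried the mutation. The prmt5-5 allele arose in Col and reached Ler through 7 generations of backcrossing, so Ler prmt5-5 can retain Col DNA next to it. Plants of the Ler line also carry the erecta mutation in both genotypes, while Col does not. Per the labels, seedlings were 9 days old, had been stratified for 4 days at 4 °C in the dark and were then kept at 22 °C in continuous light. A second protocol in the labels describes soil and long days, and the sources used here do not say which plants it covers. The labels name no cold treatment after stratification. The labels do not say whether replicates came from separate plantings, so p-values measure the spread between these samples, which may be technical.

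CBF proteins are AP2/ERF transcription factors that are induced within hours of a drop in temperature and bind the C-repeat or dehydration-responsive element, whose core is CCGAC. Their targets, the COR genes, encode hydrophilic proteins that protect membranes and other proteins during freezing and dehydration. At ambient temperature the CBF genes are kept low and are gated by the circadian clock, through the morning factors CCA1 and LHY and the PRR proteins among others. PRMT5 is a protein arginine methyltransferase that methylates histones as well as Sm proteins, which belong to the spliceosome, and its loss alters splicing and clock timing in Arabidopsis.

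The genes lie in 5 places, and 9 of them sit next to another of the 10. Positions are from the RefSeq annotation of TAIR10.1, because the count tables carry no coordinates. On chromosome 4, on the minus strand, CBF2 (AT4G25470) spans 13015250 to 13016235, CBF3 (AT4G25480) spans 13018010 to 13019400 and CBF1 (AT4G25490) spans 13021780 to 13022996, each with 1 exon. On chromosome 2, COR15B (AT2G42530, 17708593 to 17710433) and COR15A (AT2G42540, 17710441 to 17712330) follow each other on the minus strand at a distance of 7 bases, each with 2 exons. They encode chloroplast stromal proteins that stabilise membranes. On chromosome 1, COR47 (AT1G20440, 7084409 to 7086873) and ERD10 (AT1G20450, 7087903 to 7089606) encode acidic dehydrins and have 2 exons each on the minus strand. On chromosome 5, KIN1 (AT5G15960, 5209717 to 5210826) and KIN2 (AT5G15970, 5211719 to 5212743) encode small hydrophilic proteins and have 3 exons each on the plus strand. RD29A (AT5G52310, 21240717 to 21243644, plus strand, 4 exons) lies alone among the 10 and encodes a hydrophilic protein used as a standard reporter of cold, drought and abscisic acid (ABA) responses. CBF3 overlaps the opposite-strand lncRNA gene AT4G07385 and COR15B overlaps the opposite-strand gene AT2G42520, and the sources used here do not give the strand setting of the counting, so reads of these pairs cannot be told apart.

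The neighbours are duplicates of each other, and the reads can in principle be divided between them in a way that the sources used here do not give. Over their aligned coding sequences KIN1 and KIN2 shared 95.02% of bases, the 3 CBF genes 85.0% to 86.9%, COR15A and COR15B 83.7%, and COR47 and ERD10 73.6%. No pair shared an identical stretch of 100 bases, the read length per the labels, in its exons: 0 such windows were found in the 6 pairs. The longest shared run was 68 bases, between CBF1 and CBF2.

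The CBF binding core was found upstream of 2 of the 10 genes, which are therefore shown with their upstream sequence. CCGAC was searched on both strands from 250 bases before to 50 bases after the RefSeq start of each gene. It occurred in COR15A and RD29A, and in 14.97% of the 26712 protein-coding promoters of the same length. The stretches below are the 250 bases before the start in TAIR10.1, read 5′ to 3′ on the strand of the gene, and capitals mark CCGAC or its reverse complement GTCGG.
COR15A, chr2:17712331-17712580, minus strand: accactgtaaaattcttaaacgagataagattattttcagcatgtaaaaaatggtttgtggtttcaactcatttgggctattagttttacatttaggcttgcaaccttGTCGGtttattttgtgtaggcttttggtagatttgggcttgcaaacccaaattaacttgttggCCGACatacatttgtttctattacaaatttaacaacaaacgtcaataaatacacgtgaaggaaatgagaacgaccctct
RD29A, chr5:21240467-21240716, plus strand: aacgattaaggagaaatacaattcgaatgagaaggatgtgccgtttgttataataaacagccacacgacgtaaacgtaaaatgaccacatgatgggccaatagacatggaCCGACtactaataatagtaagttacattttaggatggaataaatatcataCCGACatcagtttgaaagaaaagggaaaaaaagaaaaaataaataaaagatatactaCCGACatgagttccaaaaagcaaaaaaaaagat
COR15A held the core at 142 bases before the start on the reverse strand and at 79 bases before it on the strand of the gene. RD29A held it at 140, 90 and 33 bases before the start, all on the strand of the gene, and once more at base 4 after the start. ACGTG, the core of the ABA-responsive element, occurred in CBF2, COR15A, KIN1 and KIN2 and in 26.9% of all promoters. CACGTG, the G-box, which contains ACGTG, occurred in CBF2, COR15A and KIN2 and in 7.79% of all promoters. The KIN2 match lay after the start, at bases 29 to 34. CGCG, the core bound by CAMTA factors, occurred in CBF2 and RD29A and in 13.0% of all promoters. The RD29A match lay after the start, at bases 16 to 19. AAAATATCT, the evening element, occurred in 0 of the 10 windows and in 2.86% of all promoters. These matches describe letters in a short window and were not tested as binding sites. Sites farther from the start were not searched, so a gene without a match may still hold one. Nearly all of the 250 bases before COR15B lie inside the annotated COR15A gene, which is 7 bases away.

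The parental libraries held 36993754 to 72714639 counts and the F1 libraries 6047694 to 29376408 allele-assigned counts. PRMT5 itself lay between 29.7 and 37.2 CPM (counts scaled to library size and TMM factor) in all 12 parental libraries, so its RNA level did not separate the genotypes, but its Ler allele took 0.189% of 1057 allele counts in prmt5-5 F1 and 53.1% of 1046 in WT F1. Summed over each library, 4 leaf marker genes had 34737 to 45743 CPM, 5 root markers 24.7 to 43.0 CPM, 6 seed storage markers 0.0249 to 7.98 CPM and 5 floral organ markers 0.834 to 11.6 CPM in the 12 parental libraries. In whole seedlings, fewer cells of a type and less RNA per cell cannot be told apart.

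At 22 °C the 3 regulators were weakly expressed and the 7 COR genes were not. CBF1 had 0 to 14 counts per parental library, or 0 to 0.220 CPM, and was too low to be tested. CBF2 had 16 to 74 counts and CBF3 30 to 104. Per kilobase of exon, in Ler prmt5-5 COR47 averaged 75.8, KIN2 60.6, ERD10 35.2, COR15A 16.4, COR15B 12.2, RD29A 8.48, KIN1 8.27, CBF2 0.541, CBF3 0.398 and CBF1 0.0592 CPM per kb (n = 3). In that order the libraries of COR47 and KIN2, of RD29A and KIN1, and of CBF2 and CBF3 overlapped. In Ler WT KIN2 was first with 146 CPM per kb, and its libraries overlapped those of COR47 at 138 CPM per kb. Further down in Ler WT, COR15A at 20.7, COR15B at 19.7, KIN1 at 15.04 and RD29A at 12.5 CPM per kb each overlapped the next. In Col, KIN2 stood above every other gene in each library, with means of 192 CPM per kb in prmt5-5 and 182 CPM per kb in WT. CBF1 had the lowest mean in all 4 parental groups.

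The first comparison asked what prmt5-5 did to these genes in Ler. CBF3, COR15B, COR47, KIN1, KIN2, ERD10 and RD29A were lower in Ler prmt5-5 than in Ler WT, with log2 fold changes of -0.56 to -1.58. That is 7 of the 9 genes tested, 0 rose and 2 did not pass the test, while 35.7% of all 22924 genes tested passed it in either direction, 18.9% upward and 16.9% downward (quasi-likelihood test of edgeR, adjusted p under 0.05). The median log2 fold change was -0.84 over the 9 genes and 0.01 over all genes tested. Sizes of a rise, fall or difference are on the log2 scale throughout. Where groups are said not to overlap, the share of all genes without overlap is not given.

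CBF3 had 0.549, 0.551 and 0.560 CPM in the 3 Ler prmt5-5 libraries, against 1.41, 1.79 and 1.77 CPM in Ler WT. The Ler prmt5-5 values were nearly equal and all lay below every WT value. The log2 fold change of CBF3 was -1.58 (SE 0.24, adjusted p = 0.000203), which rests on 30 to 40 counts per mutant library. CBF2 had 0.330, 0.784 and 0.486 CPM in Ler prmt5-5 and 1.33, 0.896 and 0.582 CPM in Ler WT, groups that overlapped, and its log2 fold change of -0.84 (SE 0.40) did not pass the test (adjusted p = 0.122).

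Among the COR genes the dehydrin gene COR47 had 193, 165 and 169 CPM in Ler prmt5-5, against 279, 356 and 325 CPM in Ler WT. It fell by 0.86 (SE 0.11, adjusted p = 5.68e-05). Its neighbour ERD10 had 58.3, 54.1 and 59.1 CPM in Ler prmt5-5, against 78.0, 94.6 and 85.7 CPM in Ler WT, and fell by 0.59 (SE 0.09, adjusted p = 0.000187). In each of these dehydrin genes the highest mutant library was below the lowest WT library. KIN2 had 61.1, 31.2 and 44.1 CPM in Ler prmt5-5 and 114, 118 and 96.7 CPM in Ler WT. It fell by 1.27 (SE 0.20, adjusted p = 0.000552), and its groups did not overlap either. KIN1 had 7.32, 6.01 and 7.25 CPM in Ler prmt5-5 and 10.3, 15.9 and 11.3 CPM in Ler WT, without overlap, and fell by 0.86 (SE 0.15, adjusted p = 0.000622).

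Of the adjacent genes COR15A and COR15B, the second passed the test and the first did not, and the difference between them was not tested. COR15B had 21.7, 17.1 and 19.3 CPM in Ler prmt5-5, against 30.8, 34.7 and 28.0 CPM in Ler WT, and fell by 0.68 (SE 0.17, adjusted p = 0.00942). COR15A had 28.5, 21.9 and 27.4 CPM in Ler prmt5-5 and 39.0, 31.1 and 28.4 CPM in Ler WT. Its highest mutant library lay just above the lowest WT library, and its log2 fold change of -0.34 (SE 0.17) did not pass the test (adjusted p = 0.142). RD29A had 21.1, 22.3 and 24.4 CPM in Ler prmt5-5 and 22.8, 40.9 and 36.3 CPM in Ler WT, with Ler WT replicate 1 inside the mutant range. Its fall by 0.56 (SE 0.19, adjusted p = 0.0419) was lost in 9 of 12 fits that each omitted a single library, with an adjusted p of up to 0.157 without Ler WT replicate 2. It held without Col WT replicate 2, Col WT replicate 3 or Ler WT replicate 1. It did not pass with replicate number as a block (adjusted p = 0.0604) or without the filter on low counts (0.0729) either.

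**Figure D1:**
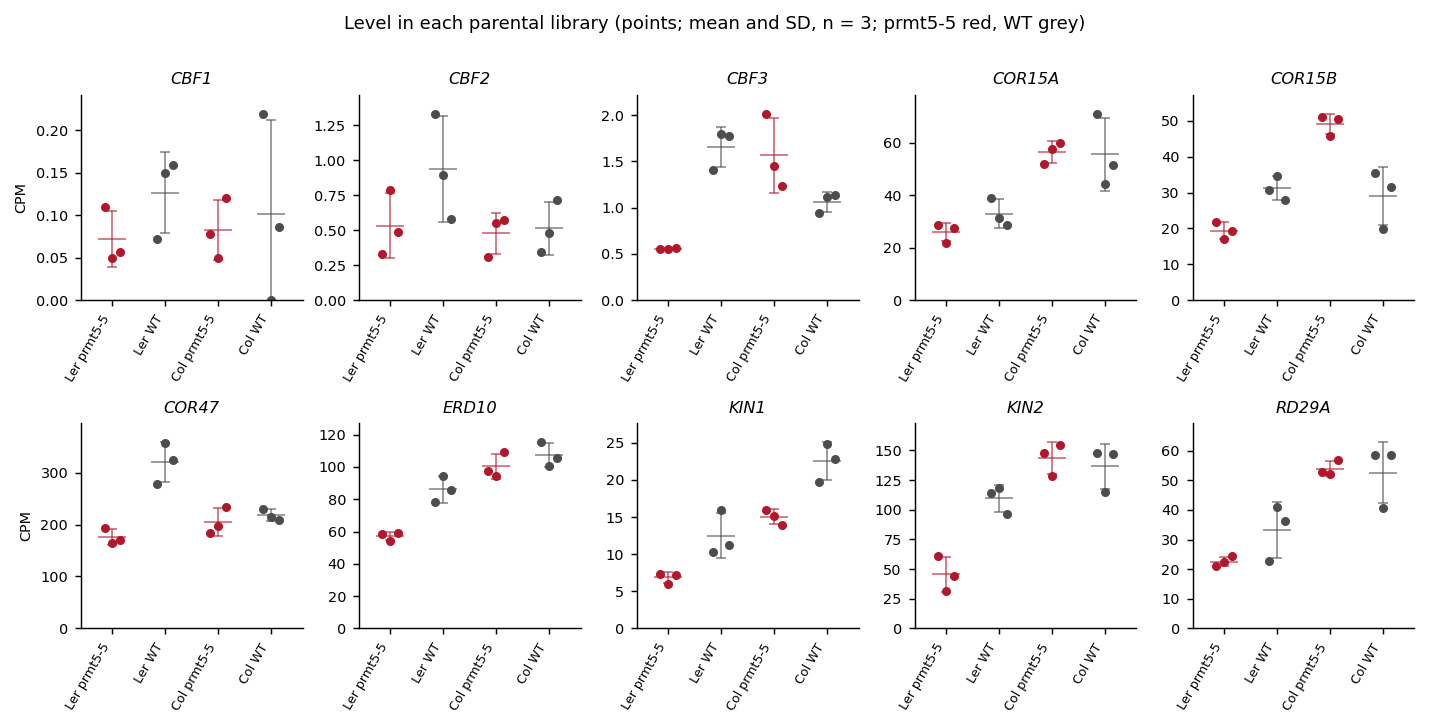
Level of each gene in each of the 12 parental libraries in CPM (linear axis from 0), with prmt5-5 libraries in red and WT libraries in grey. Horizontal marks and bars give the mean and SD of 3 libraries. In Ler, all 3 mutant values of CBF3, COR15B, COR47, ERD10, KIN1 and KIN2 lie below all 3 WT values. The share of all genes that separate in this way is not given.

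In Col the same mutation changed 2 of the 9 genes tested, COR15B upward and KIN1 downward, where 26.9% of all 22924 genes tested passed in either direction, 14.6% upward and 12.3% downward. The median log2 fold change was 0.02 over the 9 genes and 0.01 over all genes tested. COR15B had 51.1, 45.9 and 50.5 CPM in Col prmt5-5, against 35.5, 19.8 and 31.6 CPM in Col WT. It rose by 0.76 (SE 0.17, adjusted p = 0.0069) and the groups did not overlap. KIN1 had 16.0, 15.2 and 14.0 CPM in Col prmt5-5 and 19.8, 24.9 and 22.9 CPM in Col WT, again without overlap, and fell by 0.58 (SE 0.14, adjusted p = 0.00863). CBF3 had 2.02, 1.45 and 1.24 CPM in Col prmt5-5, against 0.942, 1.12 and 1.13 CPM in Col WT. These groups did not overlap either, but the log2 fold change of 0.56 (SE 0.22) did not pass the test (adjusted p = 0.0809).

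The other COR genes had similar means in the Col genotypes. COR47 averaged 205 ± 26.5 CPM in Col prmt5-5 and 218 ± 11.5 CPM in Col WT (SD, n = 3 each), and KIN2 averaged 144 ± 13.3 CPM in Col prmt5-5 and 136 ± 18.7 CPM in Col WT. ERD10 averaged 100.5 ± 7.73 CPM in Col prmt5-5 and 107 ± 7.48 CPM in Col WT, COR15A 56.4 ± 4.18 CPM in Col prmt5-5 and 55.5 ± 13.9 CPM in Col WT, and RD29A 53.9 ± 2.55 CPM in Col prmt5-5 and 52.6 ± 10.3 CPM in Col WT. The libraries of the genotypes overlapped in each of these 5 genes. Their log2 fold changes lay between -0.09 (ERD10, SE 0.09) and 0.07 (KIN2, SE 0.19). CBF2 averaged 0.477 ± 0.145 CPM in Col prmt5-5 and 0.514 ± 0.189 CPM in Col WT (SD, n = 3 each), a log2 fold change of -0.12 with an SE of 0.43.

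**Figure D2:**
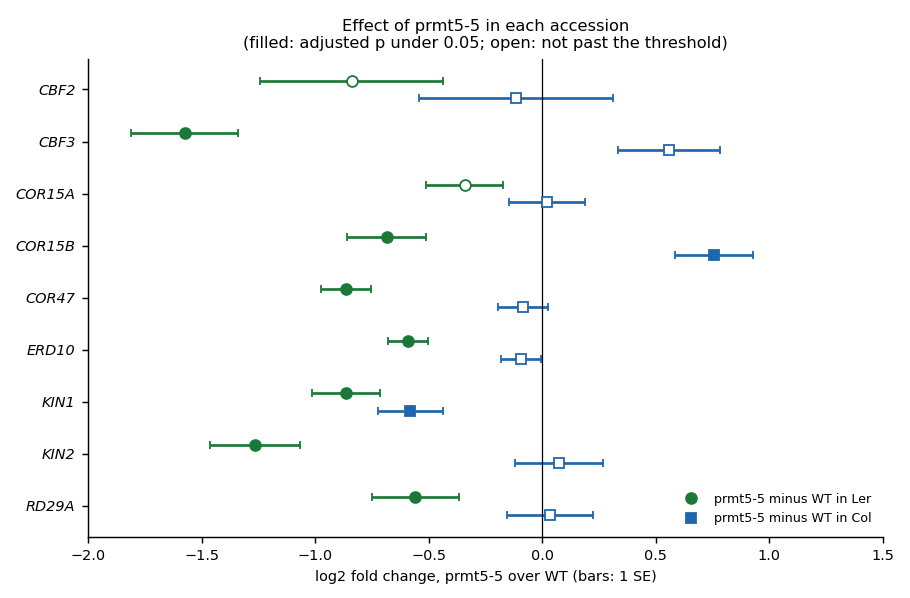
Log2 fold change of prmt5-5 over WT in Ler (green circles) and Col (blue squares) for the 9 genes tested, with bars of 1 SE and filled symbols where the adjusted p was under 0.05. In Ler all 9 estimates are negative and 7 pass, and in Col the estimates lie between -0.58 and 0.76 and 2 pass.

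Whether the mutation acted differently in the accessions was tested directly, by subtracting the Col effect (prmt5-5 over WT) from the Ler effect. The difference was negative in all 9 genes tested and passed the test in 5, COR15B, CBF3, COR47, KIN2 and ERD10, where 3.35% of all 22924 genes tested passed in either direction, 1.59% upward and 1.76% downward. The median was -0.72 over the 9 genes and -0.01 over all genes tested. CBF3 differed by -2.13 (SE 0.33, adjusted p = 0.00356), with -1.58 in Ler and 0.56 in Col. COR15B differed by -1.44 (SE 0.24, adjusted p = 0.0098), with opposite changes in Ler and Col that each passed the test. COR47 differed by -0.78 (SE 0.15, adjusted p = 0.0149). These 3 differences passed the test under every alternative that was run, including each fit that omitted a single library, with adjusted p values of up to 0.0132 for CBF3, 0.0325 for COR15B and 0.0499 for COR47.

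The other differences were less secure. KIN2 differed by -1.34 (SE 0.28, adjusted p = 0.0232), but it was lost in 5 of the 12 single-library omissions, namely without Col WT replicate 2 or 3, Ler WT replicate 2, Col prmt5-5 replicate 3 or Ler prmt5-5 replicate 3 (adjusted p up to 0.0665). ERD10 differed by -0.50 (SE 0.12, adjusted p = 0.0413) and was lost in 9 of those 12 omissions, with an adjusted p of up to 0.121 without Col prmt5-5 replicate 3, or with the replicate block (0.0566). RD29A differed by -0.59 (SE 0.27, adjusted p = 0.278), and passed without Ler WT replicate 1 (-0.81, adjusted p = 0.0284). COR15A (-0.36, SE 0.24), KIN1 (-0.28, SE 0.21) and CBF2 (-0.72, SE 0.59) did not pass, with adjusted p values of 0.473, 0.525 and 0.575.

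The lists around the pathway moved as follows in Ler, Col and their difference. They were compiled with earlier results of these data known and are described by counts, to be read against 35.7% of all genes tested in Ler, 26.9% in Col and 3.35% for the difference. Of 24 upstream regulators tested, which include ICE1, the CAMTA factors, kinases and PIF factors, 4 rose and 6 fell in Ler, 3 rose and 2 fell in Col, and 1 differed between the accessions. PIF7, a phytochrome-interacting factor known to repress CBF genes, rose in Ler (0.93, SE 0.15) and in Col (0.96, SE 0.15). PIF4 fell in Ler by 1.27 (SE 0.25) and had a log2 fold change of -0.43 (SE 0.25) in Col, which did not pass. SOC1, a floral integrator that represses CBF genes, fell by 0.81 (SE 0.09) in Ler and by 0.90 (SE 0.10) in Col. CAMTA1, an activator of the CBF genes, rose by 0.77 (SE 0.08) in Ler and by 0.88 (SE 0.08) in Col. None of these 4 genes differed between the accessions past the threshold.

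Of 12 clock regulators of the CBF genes, 3 rose and 3 fell in Ler, 5 rose and 3 fell in Col, and 8 differed between the accessions, 3 upward and 5 downward. CCA1 had 92.4, 77.6 and 80.9 CPM in Ler prmt5-5 and 80.9, 71.6 and 69.2 CPM in Ler WT (log2 0.18, SE 0.12, adjusted p = 0.279). In Col it had 61.6, 76.7 and 55.0 CPM in prmt5-5 and 142, 117 and 145 CPM in WT, and fell by 1.07 (SE 0.12). LHY rose in Ler by 0.47 (SE 0.13) and fell in Col by 0.99 (SE 0.13). Among the PRR genes, PRR7 fell by 0.60 (SE 0.15) and PRR5 by 0.57 (SE 0.11) in Ler. PRR9 rose by 0.62 (SE 0.13) in Ler and by 1.06 (SE 0.13) in Col. The effects of the accessions differed by 1.24 (SE 0.17, adjusted p = 0.00244) for CCA1, 1.46 (SE 0.18) for LHY and -1.19 (SE 0.16) for PRR5. All samples are of 1 age with no time course, so a shift in timing and a change of level cannot be told apart.

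Of 3 other DREB genes tested, which encode factors that bind the same element under drought and heat, DREB2C rose in Ler (1.37, SE 0.22) and in Col (1.97, SE 0.24), DREB2B rose in Col (0.86, SE 0.18) and had 0.45 (SE 0.17) in Ler, which did not pass, and DREB2A fell in Ler by 0.69 (SE 0.17) and had 0.16 (SE 0.17) in Col, which did not pass. None of the 3 differed between the accessions past the threshold. Of 19 other CBF regulon genes, 1 rose and 7 fell in Ler, 6 rose and 3 fell in Col, and 4 had a lower effect in Ler. COR413-PM1, a membrane protein gene, averaged 112 CPM in Ler prmt5-5, against 212 CPM in Ler WT, and fell by 0.92 (SE 0.10), with a difference between accessions of -0.78 (SE 0.14, adjusted p = 0.0105). COR413IM1, a chloroplast envelope protein gene, fell in Ler by 2.18 (SE 0.36) and had -1.04 (SE 0.34) in Col, where it did not pass. COR413IM2 fell in both accessions, by 0.69 (SE 0.09) in Ler and by 0.70 (SE 0.09) in Col.

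Markers of related responses were compared too, and their part in the fall in Ler was not tested. Of 12 ABA and drought markers, 8 fell and 1 rose in Ler, 5 fell and 1 rose in Col, and 1 had a lower effect in Ler. Their summed level was 55.8 to 62.0 CPM in Ler prmt5-5 and 84.0 to 98.5 CPM in Ler WT, and 62.3 to 72.7 CPM in Col prmt5-5 and 73.9 to 80.6 CPM in Col WT. LEA7, a late embryogenesis abundant protein gene, fell by 2.75 (SE 0.42) in Ler and by 2.96 (SE 0.55) in Col. NCED3, which makes the limiting enzyme of ABA synthesis, fell by 1.35 (SE 0.15) in Ler and differed between the accessions by -0.999 (SE 0.21, adjusted p = 0.019). Touch and rapid stress genes can be induced by handling. Of 11 tested, 3 rose and 0 fell in Ler, and 1 rose and 0 fell in Col. Their summed level was 240.1 to 340.2 CPM in Ler prmt5-5 and 138 to 179.9 CPM in Ler WT, and 151 to 324 CPM in Col prmt5-5 and 136 to 173 CPM in Col WT. TCH3 was the largest single part of these sums, with means of 169 CPM in Ler prmt5-5 and 54.4 CPM in Ler WT. In Col prmt5-5 TCH3 had 149, 51.3 and 92.6 CPM, against a mean of 47.7 CPM in Col WT. The sums therefore do not describe the list as a whole.

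Tissue markers were also compared between the genotypes of Ler. The 5 floral organ markers summed to 3.81 to 6.57 CPM in Ler prmt5-5 and 8.65 to 11.6 CPM in Ler WT, and the 5 root markers to 24.7 to 28.8 CPM in Ler prmt5-5 and 26.1 to 43.0 CPM in Ler WT. The 4 leaf markers summed to 35450 to 41104 CPM in Ler prmt5-5 and 39774 to 42761 CPM in Ler WT, and the 6 seed storage markers to 0.19 to 7.98 CPM in Ler prmt5-5 and 0.18 to 6.46 CPM in Ler WT. Within the leaf list LHCB3 and LHCB1.3, which encode light-harvesting proteins, fell by 0.92 (SE 0.15) and 0.69 (SE 0.13) in Ler, and RCA, the Rubisco activase gene, rose by 0.37 (SE 0.10). In Col LHCB3 fell by 0.93 (SE 0.15) and LHCB1.3 by 0.53 (SE 0.13). Of the seed storage markers, 2 had 0 counts in Ler prmt5-5 and 1 in Ler WT.

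The accessions themselves differed in these genes, in prmt5-5 mostly downward in Ler and in WT in both directions. With prmt5-5 in both, Ler was below Col in 7 of the 9 genes tested and above it in 0, where 28.1% of all genes tested differed in either direction, 14% being higher and 14.1% lower. KIN2 averaged 45.5 ± 15.01 CPM in Ler prmt5-5 and 144 ± 13.3 CPM in Col prmt5-5 (SD, n = 3 each), a log2 difference of -1.66 (SE 0.20, adjusted p = 6.56e-05). CBF3 was lower by 1.49 (SE 0.24), COR15B by 1.34 (SE 0.17), RD29A by 1.26 (SE 0.19), KIN1 by 1.13 (SE 0.15), COR15A by 1.12 (SE 0.17) and ERD10 by 0.81 (SE 0.09). COR47 (-0.22, SE 0.11, adjusted p = 0.151) and CBF2 (0.15, SE 0.42) did not pass.

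In WT, 2 of the 9 genes were higher in Ler and 4 lower, where 29.8% of all genes tested differed in either direction, 14.5% being higher and 15.2% lower. COR47 averaged 320 ± 38.8 CPM in Ler WT and 218 ± 11.5 CPM in Col WT (SD, n = 3 each) and was higher in Ler by 0.56 (SE 0.11, adjusted p = 0.00141). CBF3 averaged 1.66 ± 0.217 CPM in Ler WT and 1.06 ± 0.106 CPM in Col WT and was higher in Ler by 0.64 (SE 0.22, adjusted p = 0.045), a call lost in 8 of the 12 single-library omissions (adjusted p up to 0.141 without Col WT replicate 1). KIN1 was lower in Ler by 0.85 (SE 0.14), COR15A by 0.76 (SE 0.17), RD29A by 0.66 (SE 0.19) and ERD10 by 0.32 (SE 0.09). ERD10 did not pass without Col WT replicate 1 or Ler WT replicate 1 (adjusted p up to 0.0609), and RD29A did not pass without Col WT replicate 1 or 3 (adjusted p up to 0.0757). COR15B (0.10, SE 0.17), KIN2 (-0.32, SE 0.20) and CBF2 (0.87, SE 0.41) did not pass in WT.

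In the F1 hybrids allele-assigned counts were summed per gene. This covered the genes unequally: COR15B had 0 to 36 allele-assigned counts per F1 library, against 747 to 3349 counts per parental library, CBF3 had 3 counts over all 12 F1 libraries and CBF1 had 27. These 3 genes were not tested in the hybrids, and F1 levels are not comparable with parental levels. Of the 7 genes tested, 0 passed the test for prmt5-5 against WT in LerxCol, where 13.3% of all 17301 genes tested passed (6.91% upward and 6.43% downward), and 0 passed in ColxLer, where 5.55% passed (3.7% upward and 1.85% downward). DESeq2 also called 0 of the 7 in each cross, and at an unadjusted p under 0.05 edgeR called 1 of them in LerxCol, with 4730 of all genes tested, and 1 in ColxLer, with 3358 of all.

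COR47 had 209, 155 and 175 CPM in LerxCol prmt5-5, against 127, 238 and 230 CPM in LerxCol WT. In ColxLer it had 174, 155 and 161 CPM in prmt5-5 and 146, 169 and 191 CPM in WT. The genotypes overlapped in both crosses, and the log2 fold changes were -0.14 (SE 0.20) in LerxCol and -0.05 (SE 0.20) in ColxLer. ERD10 had 104, 99.4 and 82.7 CPM in LerxCol prmt5-5, against 91.5, 98.6 and 130 CPM in LerxCol WT, with log2 fold changes of -0.16 (SE 0.19) in LerxCol and -0.09 (SE 0.19) in ColxLer. KIN2 had 165, 109 and 162 CPM in LerxCol prmt5-5, against 88.3, 207 and 142 CPM in LerxCol WT. KIN2 had 131, 178 and 95.97 CPM in ColxLer prmt5-5, against 99.9, 100.4 and 107 CPM in ColxLer WT. Its log2 fold changes were -0.01 (SE 0.29) in LerxCol and 0.40 (SE 0.29) in ColxLer, and the genotypes overlapped in each cross. KIN1 had log2 fold changes of -0.24 (SE 0.32) in LerxCol and -0.05 (SE 0.33) in ColxLer.

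COR15A varied widely between libraries of 1 group. It had 160, 89.0 and 113 CPM in LerxCol prmt5-5, against 78.5, 183 and 78.3 CPM in LerxCol WT, and 87.3, 119 and 51.6 CPM in ColxLer prmt5-5, against 165, 65.2 and 71.8 CPM in ColxLer WT. The log2 fold change was 0.08 (SE 0.49) in LerxCol and 0.62 (SE 0.48) without LerxCol WT replicate 2. It was -0.22 (SE 0.49) in ColxLer and 0.32 (SE 0.47) without ColxLer WT replicate 1, and passed in none of these fits. RD29A had 23.0, 27.9 and 18.4 CPM in ColxLer prmt5-5, against 12.1, 16.2 and 18.1 CPM in ColxLer WT, which did not overlap, but its log2 fold change of 0.56 (SE 0.21) did not pass (adjusted p = 0.15). In LerxCol it was -0.00 (SE 0.21).

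CBF2 was the regulator with enough allele-assigned counts to be followed. It had 13, 22 and 12 counts (1.13, 1.18 and 1.87 CPM) in LerxCol prmt5-5, against 0, 16 and 8 counts (0, 0.578 and 0.415 CPM) in LerxCol WT. In ColxLer it had 12, 10 and 40 counts (0.903, 0.989 and 2.44 CPM) in prmt5-5 and 2, 8 and 6 counts (0.355, 0.855 and 0.494 CPM) in WT. The mutant libraries lay above the WT libraries in both crosses. The log2 fold changes of 1.74 (SE 0.64, adjusted p = 0.0895) in LerxCol and 1.32 (SE 0.65, adjusted p = 0.289) in ColxLer did not pass the test. Omitting single libraries gave 1.41 to 2.27 in LerxCol and 0.70 (without ColxLer prmt5-5 replicate 3) to 1.71 in ColxLer.

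**Figure D3:**
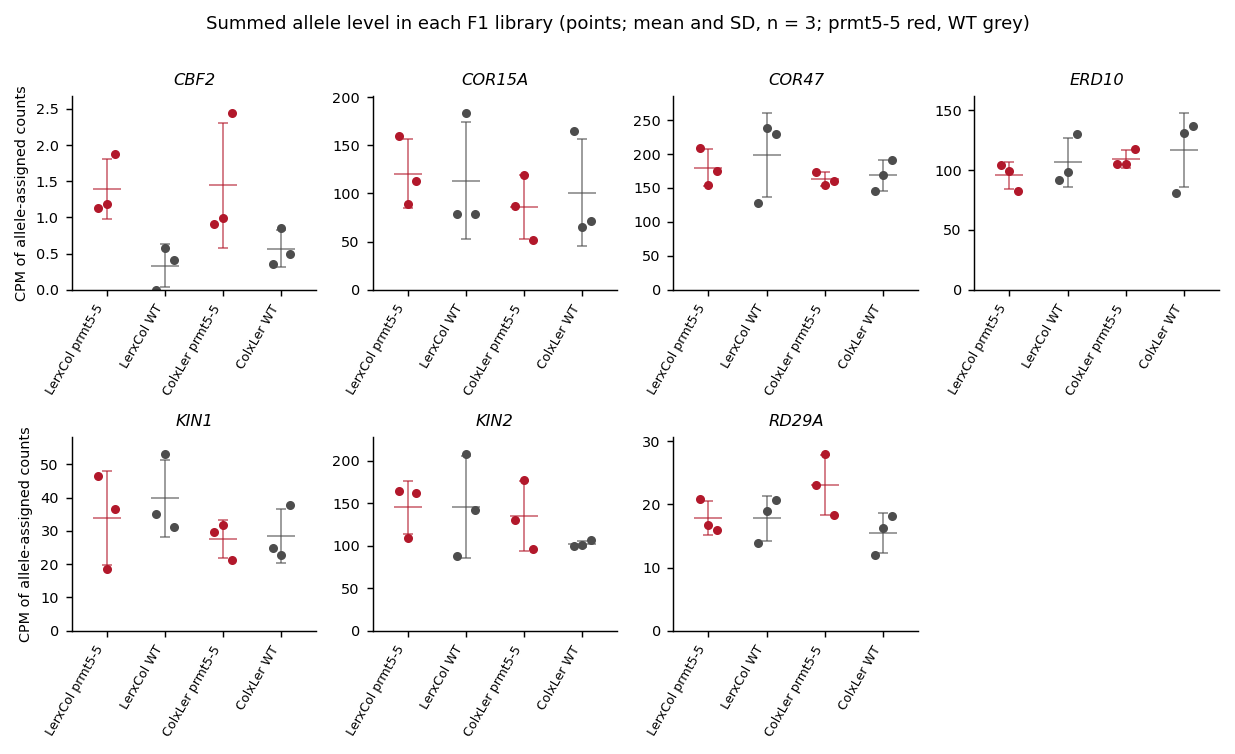
Summed allele level of the 7 genes tested in each of the 12 F1 libraries, in CPM of allele-assigned counts (linear axis from 0), with prmt5-5 in red, WT in grey, and the mean and SD of 3 libraries. The genotypes overlap in both crosses for COR15A, COR47, ERD10, KIN1 and KIN2, and in 1 cross for RD29A.

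No difference between the crosses passed the test in these genes. In the test of the LerxCol effect minus the ColxLer effect, and in LerxCol against ColxLer within WT, 0 of the 7 genes and 0 of all 17301 genes tested passed, a share of 0% (756 and 327 genes at an unadjusted p under 0.05, 11 and 1 genes by DESeq2). Within prmt5-5, 0 of the 7 and 1 gene of all passed, a share of 0.00578% (1666 at an unadjusted p under 0.05, 107 by DESeq2). The difference between the effect of prmt5-5 in hybrids and in Ler was not tested. Among the lists, CCA1 and LHY fell in the hybrids as in Col, CCA1 by 1.03 (SE 0.18) in LerxCol and by 1.14 (SE 0.18) in ColxLer, and LHY by 1.29 (SE 0.21) in LerxCol and by 0.98 (SE 0.21) in ColxLer. Of 17 other CBF regulon genes tested, 3 rose and 0 fell in LerxCol and 2 rose and 0 fell in ColxLer, beside 13.3% of all genes in LerxCol and 5.55% in ColxLer in either direction. COR27, a night-phased regulator of the clock and of freezing tolerance, rose in both, by 1.55 (SE 0.32) in LerxCol and 1.53 (SE 0.34) in ColxLer.

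Within a hybrid both alleles share the same cells, and the Ler share of allele counts sets them against each other. How reads were assigned to alleles is not given, and its effect on the share was not tested. In prmt5-5 F1, 4 of the 7 genes tested had unequal alleles, where 33.3% of all 16650 genes tested did (14.5% with more Ler and 18.7% with less). In WT F1 the same 4 genes, COR15A, ERD10, KIN1 and KIN2, had unequal alleles, where 30% of all genes tested did (14.1% with more Ler and 15.9% with less). Genes within 200000 bases of the 5 places had median Ler shares of 49.0% to 50.6% in prmt5-5 F1 and 49.7% to 50.7% in WT F1. Around CBF1 to CBF3 the medians over 84 genes were 49.0% in prmt5-5 F1 and 49.8% in WT F1. At PRMT5, which lies on the same chromosome as the CBF genes, the share in prmt5-5 F1 was 0.189%, as given above.

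Of the 7 genes, KIN2 had the most unequal alleles. Its Ler allele took 15.8%, 18.1% and 16.9% of counts in LerxCol prmt5-5, 17.1%, 19.2% and 18.2% in ColxLer prmt5-5, 20.5%, 18.8% and 16.6% in LerxCol WT, and 18.5%, 19.1% and 17.4% in ColxLer WT. Every library lay far below an equal share, and the genotypes overlapped. The log2 difference of Ler from Col allele was -2.23 (SE 0.05, adjusted p = 3.74e-32) in prmt5-5 and -2.16 (SE 0.05, adjusted p = 9.5e-31) in WT. The Ler allele of KIN1 took 609 of 2179 counts in prmt5-5 F1, or 27.9% (exact 95% interval 26.1% to 29.9%), and 784 of 3128 in WT F1, or 25.1% (23.6% to 26.6%). Its log2 differences were -1.35 (SE 0.10) in prmt5-5 and -1.59 (SE 0.10) in WT. KIN1 and KIN2 shared 95.02% of aligned coding bases, and the effect of read assignment on their shares was not tested.

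ERD10 was nearer to equality, with 44.4% of 7969 counts from Ler in prmt5-5 F1 (43.3% to 45.5%) and 45.9% of 9233 in WT F1 (44.9% to 47.0%). Its log2 differences of -0.35 (SE 0.05, adjusted p = 9.01e-07) in prmt5-5 and -0.21 (SE 0.05, adjusted p = 0.00225) in WT passed, the second not in ColxLer alone (-0.16, adjusted p = 0.182). Among these 4 genes COR15A had more Ler than Col counts, 55.3% of 7421 in prmt5-5 F1 (54.1% to 56.4%) and 58.5% of 9538 in WT F1 (57.5% to 59.4%), above an equal share in all 12 libraries. Its log2 differences were 0.32 (SE 0.05, adjusted p = 2.18e-06) in prmt5-5 and 0.54 (SE 0.05, adjusted p = 4.03e-11) in WT. COR47 took 49.5% of 12918 counts from Ler in prmt5-5 F1 and 51.1% of 16638 in WT F1, and RD29A 47.7% of 1544 in prmt5-5 F1 and 44.9% of 1460 in WT F1, and neither passed in either genotype. The log2 difference of RD29A in WT was -0.30 (adjusted p = 0.0793), and it passed without ColxLer WT replicate 3 (-0.40, adjusted p = 0.0455) or LerxCol WT replicate 2 (-0.44, adjusted p = 0.0196). The log2 difference of COR47 was -0.02 in prmt5-5, and 0.02 when the allele columns were scaled separately. In WT it was 0.18 in LerxCol alone (adjusted p = 0.0187) and -0.10 in ColxLer alone (adjusted p = 0.294). CBF2 took 56.0% of 109 counts from Ler in prmt5-5 F1 (46.1% to 65.5%) and 60% of 40 in WT F1 (43.3% to 75.1%), and did not pass in either genotype. These intervals are exact, cover counting error only and treat counts as independent, although 74.7% of allele counts from 1 to 10 were even numbers, so they are too narrow if read pairs were counted as 2.

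**Figure D4:**
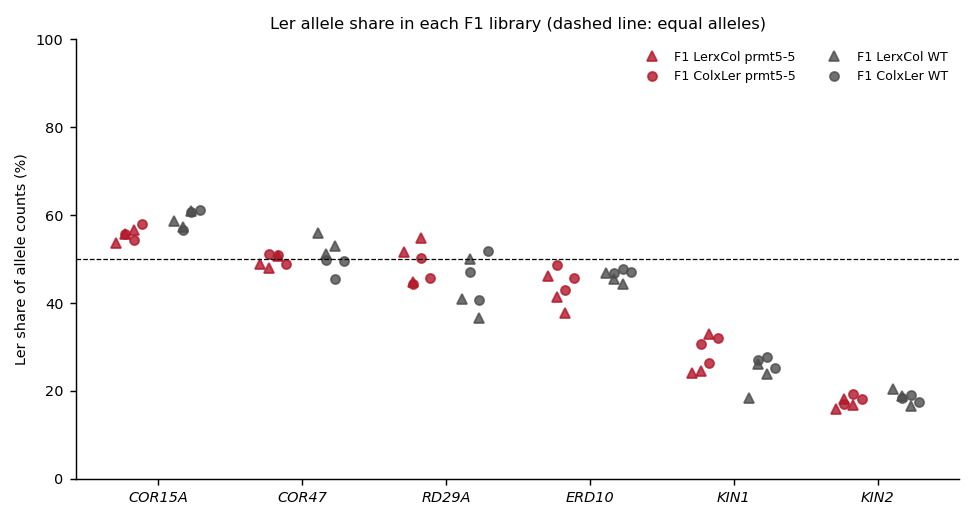
Ler share of allele-assigned counts in percent for 6 COR genes in each F1 library, with prmt5-5 in red to the left of WT in grey, triangles for LerxCol and circles for ColxLer. The dashed line marks equal alleles. KIN1, KIN2 and ERD10 lie below it and COR15A above it in all 12 libraries.

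The allelic ratio did not pass the test for a change by prmt5-5 in any of the 7 genes, where 3.93% of all 16650 genes tested did (186 or 1.12% upward and 469 or 2.82% downward, and 270 and 428 with the allele columns scaled separately). The nearest was COR15A, with a log2 change of -0.21 (SE 0.07, adjusted p = 0.119), which passed without ColxLer WT replicate 1 (-0.26, adjusted p = 0.0483). Its Ler share was 53.6% to 58.0% in the 6 prmt5-5 libraries and 56.7% to 61.2% in the 6 WT libraries, which overlap. At an unadjusted p under 0.05, 1 of the 7 and 2015 of all 16650 genes passed, and DESeq2 called 0 of the 7.

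The last comparison set the difference between the parents against the difference between the alleles. In prmt5-5, 3 of the 9 genes that passed the filter of this fit differed, all downward, where 10.1% of 21547 genes tested differed in either direction, 6.58% upward and 3.52% downward. COR15A was lower in Ler than in Col by 1.12 between the parents, while its Ler allele was higher by 0.32 in the hybrids, a difference of -1.41 (SE 0.12, adjusted p = 4.89e-07). COR15A averaged 25.9 CPM in Ler prmt5-5 and 56.4 CPM in Col prmt5-5, and COR15B 19.4 and 49.1 CPM in the same groups. In prmt5-5 hybrids COR15A averaged 120 CPM in LerxCol and 85.9 CPM in ColxLer, but COR15B 0.892 and 0.193 CPM. Whether the F1 counts of COR15A include reads of COR15B was not tested. RD29A had -1.26 between the parents and -0.10 between the alleles, a difference of -1.12 (SE 0.13, adjusted p = 2.08e-05). ERD10 had -0.81 between the parents and -0.35 between the alleles, a difference of -0.43 (SE 0.12, adjusted p = 0.0284), which was lost in 5 of the 12 single-library omissions (adjusted p up to 0.0979 without Col prmt5-5 replicate 3). KIN2 had -1.66 between the parents and -2.23 between the alleles, and the difference of 0.61 (SE 0.23, adjusted p = 0.132) passed without Ler prmt5-5 replicate 2 (0.82, adjusted p = 0.00157). COR15B and CBF3 passed the filter but had few allele counts and were not called (adjusted p = 0.0577 for COR15B and 0.138 for CBF3).

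In WT, 4 of the same 9 genes differed, where 11% of 21659 genes tested did (5.49% upward and 5.5% downward). COR15A differed by -1.29 (SE 0.19, adjusted p = 0.000279), with -0.76 between the parents and 0.54 between the alleles. KIN2 differed by 1.84 (SE 0.13, adjusted p = 6.31e-09), with -0.32 between the parents and -2.16 between the alleles. KIN1 differed by 0.74 (SE 0.18, adjusted p = 0.0112) and COR47 by 0.51 (SE 0.11, adjusted p = 0.0032). COR47 had 0.56 between the parents and 0.04 between the alleles. The parental estimates use all counts of a gene and the allelic ones only its allele-assigned counts. The effect of the assignment was not tested, neither on the close duplicates KIN1 and KIN2 nor on COR15A beside COR15B.

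**Figure D5:**
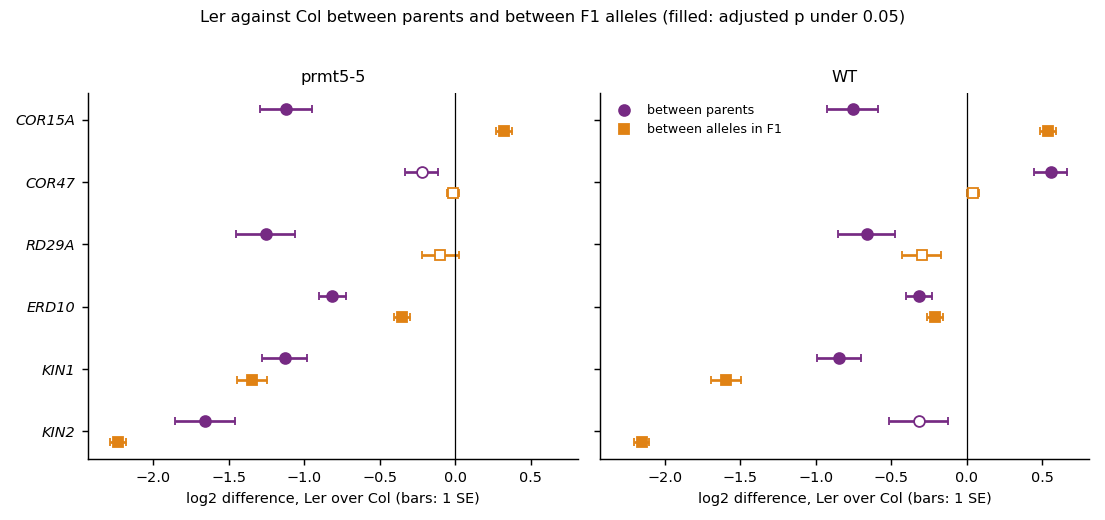
Log2 difference of Ler over Col between the parents (purple circles) and between the alleles in F1 hybrids (orange squares), with bars of 1 SE and filled symbols where the adjusted p was under 0.05, in prmt5-5 on the left and WT on the right. For COR15A the parental and allelic estimates lie on opposite sides of 0 in both genotypes, and the effect of read assignment on this was not tested.

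Across the 12 parental libraries the levels of the 7 COR genes were related. Pearson's r of log2 CPM over their 21 pairs was 0.01 to 0.94 with a median of 0.76, highest between KIN2 and ERD10, and near 0 between COR15A and COR47. After the group means were removed, r of these pairs was -0.37 to 0.83 with a median of 0.32. CBF3 had r of 0.37 to 0.73 with the 7 COR genes, and -0.59 to 0.55 within groups. CBF2 had r of -0.31 (RD29A) to 0.46 (COR47) with them, negative for all but COR47. CBF1 had r of 0.09 (KIN1) to 0.53 (COR47) with them, at counts near 0. The libraries share groups and depth, and these values are a description. Of 16106 genes with a mean of at least 5 CPM, those most like the mean profile of the 7 COR genes were AT2G23120 (r = 0.97), which is also on the list of other CBF regulon genes, PAA2 (0.97), a copper-transporting ATPase gene of the chloroplast, CW14 (0.96), NPGR1 (0.96) and AT1G75960 (0.96). Those most like the mean profile of the 3 CBF genes were RAD23C (0.95), a ubiquitin receptor gene, LNG1 (0.95), a regulator of cell elongation, AT5G47020 (0.93), AT1G73480 (0.93) and AT5G63190 (0.93). That mean joins genes that were only weakly related to each other. Their r was -0.13 for CBF1 and CBF2, 0.19 for CBF1 and CBF3, and 0.18 for CBF2 and CBF3. CBF1 entered it with 0 to 14 counts per library.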

How the data were processed

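Poly(A) RNA from whole seedlings was sequenced in 24 libraries of 8 groups with 3 replicates each. The submitters' notes on processing name Trim Galore, FastQC, STAR 2.7.9a and the genome build TAIR10. The authors deposited raw counts per gene, with 1 table for the 12 parental libraries and 1 table per cross for the F1 libraries, each with a Col-allele and a Ler-allele column per library. How reads were counted, whether strand was used and how alleles were assigned is not given in the sources here. The tables hold 33602 genes, 3 of them without Ler values.

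Genes with enough counts (filterByExpr) were scaled by TMM and tested with the robust quasi-likelihood F test of edgeR 4.0.16 in R 4.3.3. Tests were two-sided and p-values were Benjamini-Hochberg adjusted over all genes tested, with a threshold of 0.05. All 4 parental groups shared a fit, as did all 4 F1 groups on summed alleles. Allele tests used both allele columns of each F1 library with library as a block, both columns scaled together. The parental minus allelic difference was fitted on parental and allele columns together. Levels are CPM after TMM, and levels between genes are per kilobase of exon. Samples entered by their labels, and 0 value columns lay outside them. All 10 genes are named. Of the pathway lists, the text names at most 3 genes per list and comparison, those with the largest change past the threshold, and CCA1 and LHY. The most alike genes are the top 5 by Pearson's r with the mean standardised profile, log2(CPM + 1). The genes, by locus identifier, and the lists were chosen with earlier results of these data known. Scripts were tested on simulated data. Alternatives were RLE factors, DESeq2 1.42.0, no filter, a replicate block, separate allele scaling, single crosses and omission of each library.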

Additional observations from a re-analysis of the deposited data

Results flagged for a closer look

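The effect of prmt5-5 differed between Ler and Col, by a test of the difference itself, in 5 of the 9 genes tested. Of all 22924 genes tested, 3.35% passed that test. The log2 differences, Ler effect minus Col effect, were -2.13 for CBF3, -1.44 for COR15B, -1.34 for KIN2, -0.78 for COR47 and -0.50 for ERD10. The calls of KIN2 and ERD10 were less secure, being lost in 5 and 9 of the 12 single-library omissions. Groups held 3 libraries each, so single libraries were not tested for standing apart.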

How the results depend on the processing

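Of the 42 gene results that passed the test, taken over every alternative, 635 of 681 kept direction and threshold and 46 kept direction alone. The cause of changed values was not tested. DESeq2 called 1631 genes for the difference between accessions, 1472 for the effect in ColxLer, 11 for the difference between the effects of the crosses, 1 between crosses in WT and 107 in prmt5-5. Between crosses, no filter gave 1 in WT and 7 in prmt5-5, RLE factors 4 in prmt5-5 and the replicate block 1 in WT. ColxLer alone gave 366 changed allele ratios. Omitting single libraries gave 380 to 1744 genes for the difference between accessions (omission of Col WT replicate 3 gave 380, Col prmt5-5 replicate 3 410, Ler prmt5-5 replicate 2 460, its replicate 3 454 and its replicate 1 1744), 1304 (without LerxCol prmt5-5 replicate 3) to 2643 for LerxCol, 363 to 1070 for ColxLer (omission of ColxLer prmt5-5 replicates 1, 2 and 3 gave 538, 363 and 499, and of ColxLer WT replicate 2 420) and 0 to 1 between crosses in WT and in prmt5-5. Of the 10 genes, 3 to 6 then passed between accession effects, 3 to 6 between accessions in WT and 0 to 1 for the allele ratio.

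Estimates that changed sign had not passed the test. Under the replicate block the LerxCol effect was 0.047 for KIN2 and 0.013 for RD29A. ColxLer alone gave allele differences in WT of -0.10 for COR47 and -0.79 for CBF2, 0.020 for COR47 in prmt5-5, and ratio changes of 0.12 for COR47 and -4.33e-05 for RD29A. LerxCol alone gave a ratio change of -0.63 for CBF2, and separate scaling a COR47 difference of 0.023 in prmt5-5. Omitting single libraries gave, in Col, -0.14 to 0.24 for COR15A, -0.35 to 0.24 for CBF2, -0.061 to 0.15 for KIN2 and -0.14 to 0.12 for RD29A. In ColxLer it gave -0.15 to 0.057 for COR47, -0.29 to 0.048 for ERD10, -0.51 to 0.32 for COR15A and -0.19 to 0.22 for KIN1. In LerxCol it gave -0.38 to 0.0056 for COR47, -0.26 to 0.0061 for ERD10, -0.16 to 0.62 for COR15A, -0.54 to 0.084 for KIN1, -0.27 to 0.33 for KIN2 and -0.15 to 0.11 for RD29A. Ler against Col gave -0.11 to 0.27 for COR15B in WT and -0.24 to 0.41 for CBF2 in prmt5-5. Allele differences gave -0.052 to 2.03 for CBF2 in WT and -0.034 to 0.0054 for COR47 in prmt5-5, the ratio change -1.42 to 0.66 for CBF2, and the parental minus allelic difference in WT -1.74 to 0.90 for CBF2.

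Same-numbered libraries were not paired. Their deviations correlated at -0.20 to 0.49 in parents, over 0.1 in 2 of 18 pairs, and at -0.40 to 0.61 in F1, over 0.1 in 8 of 18 pairs. With the replicate block 786 genes passed for the difference between accessions, against 769 without it. For the effect of prmt5-5 in F1, 2252 genes passed with the block in LerxCol, against 2309 without it. In ColxLer 841 passed with it, against 961 without it. Among the 10 genes the block ended the calls of RD29A in Ler, ERD10 between accession effects, and CBF3 between accessions in WT (adjusted p = 0.0699). The parental minus allelic fit had no block. Low counts kept CBF1 out of all tests, and few allele-assigned counts kept CBF3 and COR15B out of the tests within hybrids.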
